A study of Mus musculus with 8 samples.

Results

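Heat shock proteins and their partners were followed in Ptf1a-lineage cells of the mouse fetal hypothalamus. The members were all protein-coding genes in the deposited tables with names beginning Hsp (except Hspg2, a matrix proteoglycan), Dnaj, Cct with a digit, Pfdn or Bag with a digit, and Tcp1. This gave 94 of 51826 genes. They comprise 3 HSP90 genes, 11 HSP70 genes, 3 HSP110 genes, 2 genes of the mitochondrial HSP60/HSP10 pair and 7 small heat shock proteins. There are also 4 DNAJA, 13 DNAJB and 28 DNAJC genes, 5 prefoldins, 6 BAG genes and 3 other genes whose names begin with Hsp. The last 9 are genes of the family of the cytosolic chaperonin CCT (also called TRiC), Tcp1 among them. Cct6a is annotated there as a processed transcript and was therefore not a member.

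Cells of both genotypes carried Cre recombinase knocked in at Ptf1a and 1 copy of Ai9, a reporter that makes a red fluorescent protein (RFP) once Cre has acted. The 4 libraries of the Het group came from Ptf1a cre/+; Ai9/+ fetuses and the 4 of the Homo group from Ptf1a cre/cre; Ai9/+ fetuses, all C57BL/6 at embryonic day 14.5. RFP-positive cells were sorted after digestion with papain for 20 min at 37 °C, so they had expressed Cre or descended from cells that had, and 10 ng of total RNA went into each library. No library without Cre or with 2 intact Ptf1a copies was analysed here, and nothing in the labels tells separate embryos from pools. Spread between libraries, on which every p-value rests, may thus be technical. The comparison asks what differs in this lineage when the remaining intact copy of Ptf1a, a gene for a transcription factor, is also lost.

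HSP70 proteins bind unfolded stretches of other proteins in an ATP-driven cycle. DNAJ proteins start that cycle, while HSP110, BAG and Hspbp1 proteins help release the nucleotide or the client. HSP90 acts later on partly folded clients such as kinases and receptors, and the ring-shaped chaperonins enclose a client; prefoldin hands actin and tubulin to CCT. Each compartment has its own set: the endoplasmic reticulum (ER) uses Hspa5 (BiP) and Hsp90b1 (GRP94), and the mitochondrial matrix uses Hspa9 and the Hspd1/Hspe1 chamber. Heat shock factors raise many cytosolic members, whereas the unfolded protein response raises many of those in the ER.

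Libraries held 2502387 to 3009181 exon reads, of which 14.0% to 16.1% had more than 1 mapping place (multi-mapped). Introns made up 59.6% to 70.9% of reads over whole genes. Ptf1a had 1 exon read in all, in Het library 3, so its level could not check the genotypes. Summed neuronal marker levels (Tubb3, Stmn2, Elavl3, Elavl4 and Snap25) were 3193 to 4169 counts per 1000000 reads (CPM) in Het and 3249 to 4136 CPM in Homo, with 3 of the 5 higher and 1 lower in Homo. Of 4 tested hypothalamic markers, 1 rose and 1 fell, namely Isl1 and Nkx2-1. Nkx2-1, which marks much of the hypothalamus, was at 258 to 329 CPM in Het and 130 to 203 CPM in Homo (log2 fold change -0.64, edgeR adjusted p = 0.0137). After the GC correction described below it was at -0.35 (edgeR adjusted p = 0.288). Of the 22 tested markers on all lists, 4 rose and 2 fell (background 6.96% and 6.12%). After that correction, only Elavl3 and Isl1 were still called. None of the 4 radial glia markers was called. None of the 4 erythroid markers was called, nor any of 3 tested of 4 endothelial and 2 tested of 5 mesenchymal markers, and none of the 5 myeloid markers had enough reads to test. The untested mesenchymal genes include Col1a1, at 0 CPM in every Het library and up to 28.3 CPM in Homo, and Col3a1, at up to 1.93 CPM in Het and 84.8 CPM in Homo. The summed mesenchymal level ran from 2.00 to 12.3 CPM in Het and from 5.61 to 160 CPM in Homo, highest in library 12. The part of these lists in the results below was not tested. In bulk RNA, fewer cells of a type and less RNA per cell cannot be told apart.

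Members took 1.48% to 1.76% of exon reads in Het libraries and 1.79% to 1.90% in Homo libraries. Per unit length, by the authors' deposited transcripts per 1000000 (TPM), the highest was Hsp90ab1, the constitutive cytosolic HSP90, at 4517 ± 727 TPM in Het and 4898 ± 240 TPM in Homo (SD, n = 4 each). Hspa8, the constitutive cytosolic HSP70, stood at 3652 ± 501 TPM and 3381 ± 326 TPM. Hsp90aa1 and Cct5 came next, at a mean of 1009 and 489 TPM over all libraries. Cct5, Cct2 and Cct7 lay within their spread of each other, at 489, 487 and 487 TPM. Hspa8 and Hsp90ab1 together supplied 44.6% to 52.2% of members' exon reads. In Het, 30 members exceeded 100 TPM, 70 exceeded 10 TPM and 8 lay under 1 TPM.

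The stress-inducible HSP70 genes and the small heat shock genes were thinly sampled. Hspa1a, an HSP70 strongly induced by heat, had 5.60, 5.01, 5.01 and 6.57 CPM in Het libraries 1 to 4 and 5.26, 7.67, 5.13 and 5.50 CPM in Homo libraries 9 to 12. The 2 groups overlapped (log2 fold change 0.08, SE 0.47, edgeR adjusted p = 0.929). Its neighbour and near-copy Hspa1b ranged from 3.46 to 8.09 CPM in Het and from 0 to 7.02 CPM in Homo, and 87.9% of Hspa1a reads and 69.6% of Hspa1b reads were multi-mapped, so the split between them is uncertain. None of the 7 small heat shock genes passed the low-count filter. Hspb1 had 0 to 5 reads in any library. Hspb8, the highest of its family per length, had 6, 4, 1 and 1 reads in Het and 20, 12, 9 and 14 in Homo. Its groups did not overlap, but it was too thinly sampled to enter the test.

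Of the 94 members, 77 passed the filter and were tested between genotypes on all exon reads. In Homo, 17 rose (22.1%) and 2 fell (2.60%) at an edgeR adjusted p under 0.05, against 6.96% of all 12257 tested genes higher and 6.12% lower. The median log2 fold change, Homo over Het, was 0.23 over the tested members and 0.04 over all tested genes. Levels did not overlap between genotypes for 22 of the 77, of which 18 were higher in Homo (background 19.6% in either direction and 10.3% higher). The 17 that did not pass the filter had between 2 and 74 reads over all libraries.

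**Figure D1:**
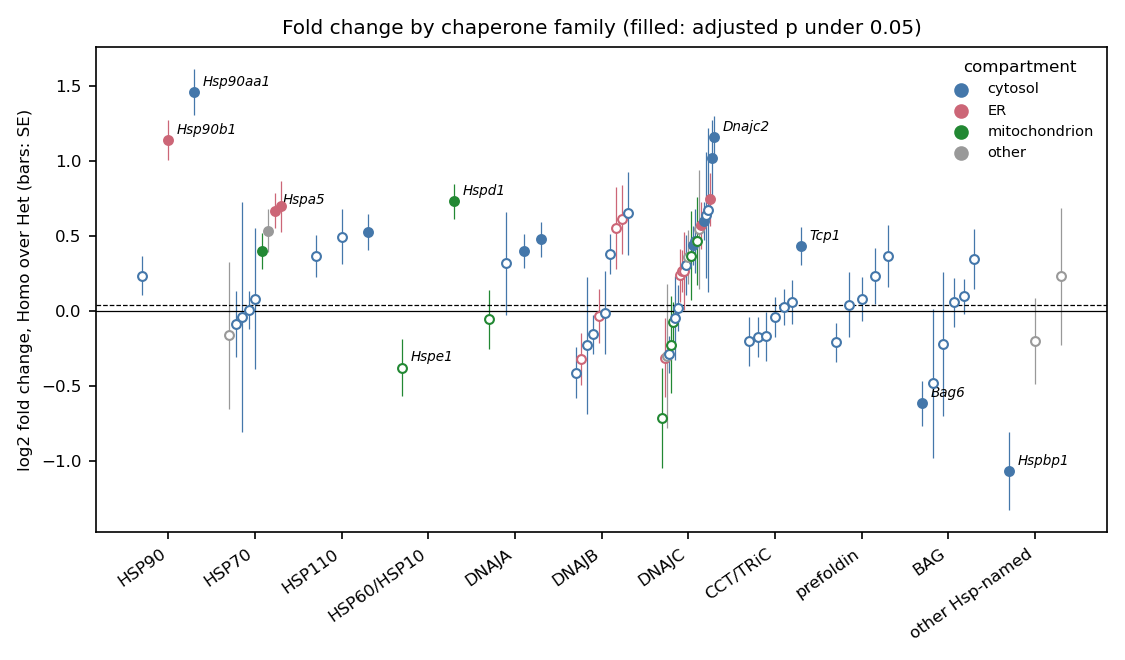
Log2 fold change of each tested member (Homo over Het, all exon reads) by family, with bars of 1 SE and colour for the compartment; filled points had an edgeR adjusted p under 0.05 and the dashed line is the median of all tested genes, 0.04. Hsp90aa1, Dnajc2, Hsp90b1 and Dnajc21 lie highest at 1.46 to 1.03, CCT and prefoldin points lie near the line, and Hspbp1 at -1.06 and Bag6 at -0.61 are the only filled points below 0.

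Of the HSP90 genes, Hsp90aa1 and Hsp90b1 rose and Hsp90ab1 did not pass the test. Hsp90aa1, the inducible cytosolic isoform (chromosome 12, 110690605 to 110702728 on GRCm38), stood at 488, 494, 701 and 755 CPM in Het and at 1658, 1544, 1736 and 1781 CPM in Homo. Every Homo library lay above every Het library, and Het libraries 3 and 4 lay above 1 and 2. It had the largest log2 fold change of any tested member, 1.46 (SE 0.15, edgeR adjusted p = 0.000306). Hsp90ab1, its constitutive counterpart, was at 4454, 4122, 3145 and 3053 CPM in Het and 4600, 4441, 4201 and 4188 CPM in Homo. Het library 1 lay within the Homo range (log2 fold change 0.24, SE 0.13, edgeR adjusted p = 0.244). The ratio of Hsp90aa1 to Hsp90ab1 in TPM was 0.0836, 0.0914, 0.170 and 0.189 in Het and 0.275, 0.265, 0.315 and 0.325 in Homo. Per length, Hsp90aa1 thus remained the lesser isoform in all 8 libraries.

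**Figure D2:**
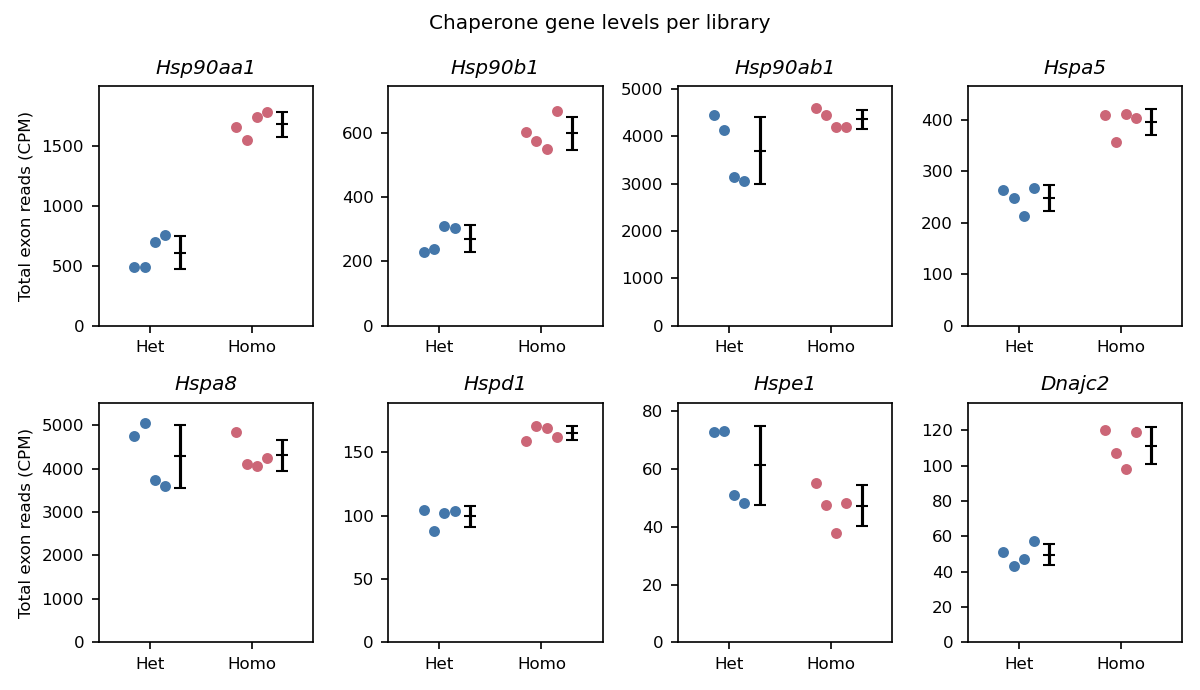
Exon read level in CPM for 8 members in each Het and Homo library (points), with the mean and SD beside each group; all axes start at 0. Hsp90aa1, Hsp90b1, Hspa5, Hspd1 and Dnajc2 separate by genotype, Hsp90ab1, Hspa8 and Hspe1 overlap, and in these last genes Het libraries 1 and 2 lie above 3 and 4.

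In the ER, the main chaperones rose. Hsp90b1, the ER HSP90, was at 230, 240, 311 and 303 CPM in Het and 601, 573, 550 and 668 CPM in Homo. All Homo values exceeded all Het values (log2 fold change 1.14, SE 0.13, edgeR adjusted p = 0.000527). Hspa5, which binds nascent chains and holds the stress sensors inactive, was at 263, 249, 212 and 267 CPM in Het and 410, 357, 410 and 403 CPM in Homo. These groups were also apart (log2 fold change 0.67, SE 0.12, edgeR adjusted p = 0.00359). Hspa13, an ER HSP70 without the usual client-binding domain, Dnajc1, an ER membrane J protein, and Dnajc10, a J protein that reduces disulfides, rose by 0.70, 0.75 and 0.57 on the log2 scale. In all, 5 of the 13 ER members rose and none fell, against 6.96% and 6.12% of all tested genes, and the other 8 ran from -0.32 to 0.61. Their median log2 fold change was 0.55 on all exon reads, 0.07 after the GC correction described below, where 1 was called, and -0.03 on whole-gene reads, where none was called. Other textbook targets of the unfolded protein response did not pass the test: Dnajb9 had a log2 fold change of 0.55 (edgeR adjusted p = 0.192), Dnajc3 0.27 (0.526) and Dnajb11 -0.03 (0.93).

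Promoter sequence was available for 77 of the 94 members in RefSeq windows of 250 bases before to 50 after the gene's start (GRCm38.p6). Hsp90aa1 was among the members without a window, so its promoter was not searched for any element. The ER stress response element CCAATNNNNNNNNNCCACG, searched on both strands, occurred in 39 of 32851 windows (0.119%), and 3 of these belong to members, Hspa5, Hsp90b1 and Dnajc3. They are shown because the same letters stood before a pair of genes that rose and before one that did not pass the test. Capitals mark the matches, and the second match in Hsp90b1 reads on the opposite strand. The windows are chr2:34771840-34772139 (plus strand) for Hspa5, chr10:86705395-86705694 (minus strand) for Hsp90b1 and chr14:118937682-118937981 (plus strand) for Dnajc3.
Hspa5: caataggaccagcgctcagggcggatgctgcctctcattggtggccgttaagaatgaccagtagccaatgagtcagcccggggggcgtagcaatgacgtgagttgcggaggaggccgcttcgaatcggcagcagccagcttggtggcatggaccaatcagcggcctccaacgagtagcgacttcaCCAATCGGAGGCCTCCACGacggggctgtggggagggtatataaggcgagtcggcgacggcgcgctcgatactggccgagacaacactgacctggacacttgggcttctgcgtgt
Hsp90b1: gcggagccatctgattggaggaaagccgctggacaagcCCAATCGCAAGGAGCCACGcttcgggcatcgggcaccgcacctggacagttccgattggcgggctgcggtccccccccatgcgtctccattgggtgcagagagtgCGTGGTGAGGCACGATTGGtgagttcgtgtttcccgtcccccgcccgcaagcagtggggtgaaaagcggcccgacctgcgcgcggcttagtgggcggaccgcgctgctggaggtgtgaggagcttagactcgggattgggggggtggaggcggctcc
Dnajc3: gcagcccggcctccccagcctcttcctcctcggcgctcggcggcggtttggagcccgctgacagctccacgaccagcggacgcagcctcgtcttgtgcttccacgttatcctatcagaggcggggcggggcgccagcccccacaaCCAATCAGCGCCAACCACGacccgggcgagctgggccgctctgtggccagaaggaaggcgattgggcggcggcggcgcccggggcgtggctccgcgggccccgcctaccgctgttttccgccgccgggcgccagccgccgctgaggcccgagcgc

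Among 19 further ER folding and stress genes that are not members, 3 rose and 2 fell (background 6.96% and 6.12%). Sec63, the translocon J protein, was higher by 0.99, the glycoprotein chaperone Canx (calnexin) by 0.82 and the disulfide isomerase Pdia3 by 0.51 (edgeR adjusted p = 0.00617, 0.00163 and 0.012). Hyou1, the ER HSP110 that acts on Hspa5, fell by 0.59 on the log2 scale, and the stress sensor Ern1 (IRE1) fell by 0.71 (edgeR adjusted p = 0.0134 and 0.0346). On all exon reads, calls among these ER genes therefore went in both directions. After the GC correction described below, none of the 19 was called.

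The mitochondrial pair Hspd1 and Hspe1, which form the HSP60 barrel and its HSP10 lid, differed in call, although the difference between them was not tested. Hspd1 was at 104, 87.6, 102 and 104 CPM in Het and 159, 171, 169 and 162 CPM in Homo, with no overlap (log2 fold change 0.73, SE 0.12, edgeR adjusted p = 0.0022). Hspe1 was at 72.8, 73.2, 50.9 and 48.1 CPM in Het and 55.1, 47.6, 37.8 and 48.3 CPM in Homo, and these overlapped (log2 fold change -0.38, SE 0.19, edgeR adjusted p = 0.201). Their TPM ratio, Hspd1 over Hspe1, was 0.946 ± 0.255 in Het and 1.99 ± 0.376 in Homo (SD, n = 4 each), a description chosen after the values were seen. The genes lie head to head on chromosome 1, Hspd1 from 55077835 to 55088243 and Hspe1 from 55088132 to 55091307, so their annotated ends overlap and reads there could be given to either unless strand was used. Hspa9, the matrix HSP70 (mortalin), was the other mitochondrial member that rose, by 0.40 (SE 0.12, edgeR adjusted p = 0.0397), though its call was lost whichever library was left out. The other 7 of the 9 did not pass the test. Of all tested genes, 6.96% rose and 6.12% fell.

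A heat shock element of 3 alternating units, the site of heat shock factors, written GAANNTTCNNGAA or TTCNNGAANNTTC, occurred in 198 of the 32851 promoter windows (0.603%) and in those of 4 members, Dnajb6, Hspd1, Hspe1 and Hsph1. Of these, Hspd1 alone was called. Hsp90aa1, which had no window, was not searched. The window of Hspe1 (chr1:55087898-55088197, plus strand) is shown because it holds 2 overlapping matches, in capitals, before the start of a gene that did not pass the test and within the annotated span of its neighbour Hspd1, which rose.
Hspe1: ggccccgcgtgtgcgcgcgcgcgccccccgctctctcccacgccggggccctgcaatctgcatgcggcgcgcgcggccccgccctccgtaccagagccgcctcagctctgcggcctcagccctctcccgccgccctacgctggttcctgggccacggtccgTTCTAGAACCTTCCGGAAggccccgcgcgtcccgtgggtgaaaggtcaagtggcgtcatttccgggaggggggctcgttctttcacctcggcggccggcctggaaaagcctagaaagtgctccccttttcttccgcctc

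In the cytosolic HSP70 machinery, several J proteins and an exchange factor rose, whereas Hspa8 itself did not pass the test. Hspa8 was at 4752, 5036, 3740 and 3595 CPM in Het and 4832, 4109, 4058 and 4238 CPM in Homo. The groups overlapped fully (log2 fold change 0.01, SE 0.13, edgeR adjusted p = 0.971). Dnajc2, a ribosome-bound J protein that receives nascent chains, was at 51.2, 43.1, 47.4 and 57.4 CPM in Het and 120, 107, 98.2 and 119 CPM in Homo. No Homo value came near the Het range (log2 fold change 1.16, SE 0.14, edgeR adjusted p = 0.000725). Dnajc21, a J protein of ribosome assembly, rose by 1.03 (SE 0.25, edgeR adjusted p = 0.0178), although Homo library 9 at 33.0 CPM lay below Het library 3 at 35.8 CPM.

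Dnajc8, a splicing-associated J protein, rose by 0.60 (edgeR adjusted p = 0.00808), Dnaja2 and Dnaja1, general cytosolic partners of HSP70, by 0.48 and 0.40 (0.0152 and 0.0341), and Dnajc7, which bridges HSP70 and HSP90, by 0.44 (0.0391). Hspa4, an HSP110 exchange factor, rose by 0.53 (edgeR adjusted p = 0.0117). Its relatives Hsph1 and Hspa4l had no overlap between genotypes but did not pass the test, at 0.37 and 0.50 (0.0992 and 0.082). The divergent HSP70 Hspa12a rose by 0.54 (0.0251). None of the 10 tested DNAJB genes passed. The heat-inducible Dnajb1 was at 53.8, 53.5, 52.0 and 59.5 CPM in Het and 47.7, 47.2, 35.2 and 34.5 CPM in Homo, lower in every Homo library (log2 fold change -0.41, SE 0.17, edgeR adjusted p = 0.124). Dnajb6, the highest of its family per length and an inhibitor of aggregation, had a log2 fold change of 0.38 (adjusted p = 0.0681).

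The members that fell were Hspbp1 and Bag6. Hspbp1, an exchange factor of HSP70, was at 28.0, 38.8, 25.8 and 22.5 CPM in Het and 10.5, 13.7, 13.2 and 17.7 CPM in Homo. The groups did not overlap (log2 fold change -1.06, SE 0.26, edgeR adjusted p = 0.0167). Bag6, which shields hydrophobic segments of new membrane proteins, was at 678, 631, 436 and 477 CPM in Het and 397, 319, 388 and 347 CPM in Homo. It too was lower in every Homo library, with Het libraries 1 and 2 far above 3 and 4 (log2 fold change -0.61, SE 0.15, edgeR adjusted p = 0.0177). The other 5 BAG genes ran from -0.48 to 0.35. Bag3, the heat-inducible BAG gene, was at -0.48 (SE 0.49, adjusted p = 0.557), and Bag1, the highest BAG gene per length, at 0.10 (0.609).

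Of the 7 tested cytosolic chaperonin genes, 1 passed the test (background 6.96% higher and 6.12% lower). Its rings are built of different subunits, and of the 7 tested genes Tcp1 (CCT alpha) rose, from 405, 401, 317 and 321 CPM in Het to 534, 455, 473 and 488 CPM in Homo. The groups were apart (log2 fold change 0.43, SE 0.13, edgeR adjusted p = 0.0368). The other 6 had log2 fold changes of -0.20 to 0.06, with Cct5, the highest per length, at -0.17 (adjusted p = 0.425). All 7 CCT genes were higher in Het libraries 1 and 2 than in 3 and 4, an order seen in 24.8% of all tested genes. Introns made up 63.8% and 63.9% of gene reads in Het libraries 1 and 2 and 70.9% and 70.1% in 3 and 4, and the part of that difference was not tested. The 5 prefoldins had log2 fold changes of -0.21 to 0.37, none past the test, with Pfdn5, the highest, at -0.21 (0.316). Among 7 related genes that are not members, 2 rose and none fell (background 6.96% and 6.12%). Vbp1 (prefoldin 3) rose by 0.80 and Pdcl, a relative of CCT cofactors, by 0.54 (edgeR adjusted p = 0.0178 and 0.0165).

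The regulators were mixed. Hsf1, the main heat shock factor, had a log2 fold change of -0.37 (SE 0.31, edgeR adjusted p = 0.453), and Hsf2 rose by 0.60 (SE 0.19, 0.0474), a value that was -0.09 after GC correction. Of 17 co-chaperones of HSP70 and HSP90 outside the members, 3 rose and 3 fell (background 6.96% and 6.12%). St13 (Hip), Chordc1 and the prolyl isomerase Ppid were higher by 0.59, 0.57 and 0.57, while Stub1 (the ubiquitin ligase CHIP), Unc45a and Sgta fell by 0.62, 0.59 and 0.57. Of 10 tested immediate-early genes, which respond to handling within minutes, none rose, and 4 fell (background 6.12%). Egr1, Dusp1, Jund and Jun fell by 1.38, 0.91, 0.88 and 0.56 on the log2 scale (edgeR adjusted p = 0.0231, 0.00474, 0.0017 and 0.0378). Their part in the chaperone results was not tested. Over all 71 such pathway genes, 65 were tested, of which 10 rose and 9 fell (background 6.96% and 6.12%). Hsf2, Ppid and Chordc1 were each called in 1 of the 8 fits that left out a library, losing the call without library 1, 2, 3, 9, 10, 11 or 12. Ern1 was called in 2, Sgta, Unc45a and Jun in 3, and Vbp1, Pdcl and Egr1 in 5.

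Many chaperone genes have pseudogene copies, so reads with 1 mapping place (unique reads) were set beside all reads. Multi-mapped reads made up 27.9% to 31.3% of members' exon reads in each library. They were uneven over members: 59 of 94 had under 5% and 15 had over 50%. Hspa8 led the well-sampled genes at 84.5%, followed by Dnaja1 at 78.1%, Hsp90aa1 at 66.0%, Dnajb6 at 52.5% and Hspd1 at 50.2%. In contrast, Hsp90ab1 had 1.09% and Hspa5 0%.

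How alike such copies can be is shown by Hspd1. The first 72 coding bases of its longest GENCODE M21 transcript (chromosome 1) and of the annotated pseudogene Hspd1-ps3 (chromosome 11), longer than the 36-base reads, have 0 differences, so no base is in capitals. Over the 1722 coding bases, 1180 of 1687 stretches of 36 bases (69.9%) are found unchanged in that copy.
Hspd1: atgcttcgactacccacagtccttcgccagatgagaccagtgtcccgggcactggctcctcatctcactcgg
Hspd1-ps3: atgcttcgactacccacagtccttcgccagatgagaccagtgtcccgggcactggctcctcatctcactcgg

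On unique reads, 14 of 73 tested members rose and 2 fell (19.2% and 2.74%, against 6.7% and 7.52% of 11203 genes). Hspbp1 and Bag6 were again the 2 that fell. Hsp90aa1 was at 164, 211, 275 and 283 unique CPM in Het and 683, 626, 705 and 699 in Homo. The groups did not overlap (log2 fold change 1.54, edgeR adjusted p = 0.000183). Hsp90b1 and Hspd1 rose by 1.20 and 0.65 (0.000183 and 0.0108). Calls lost on unique reads were those of Dnaja1, Dnajc7 and Hspa9. Dnaja1 had 0.18 on unique reads (edgeR adjusted p = 0.397), Dnajc7 0.35 (0.0806) and Hspa9 0.36 (0.0566).

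**Figure D3:**
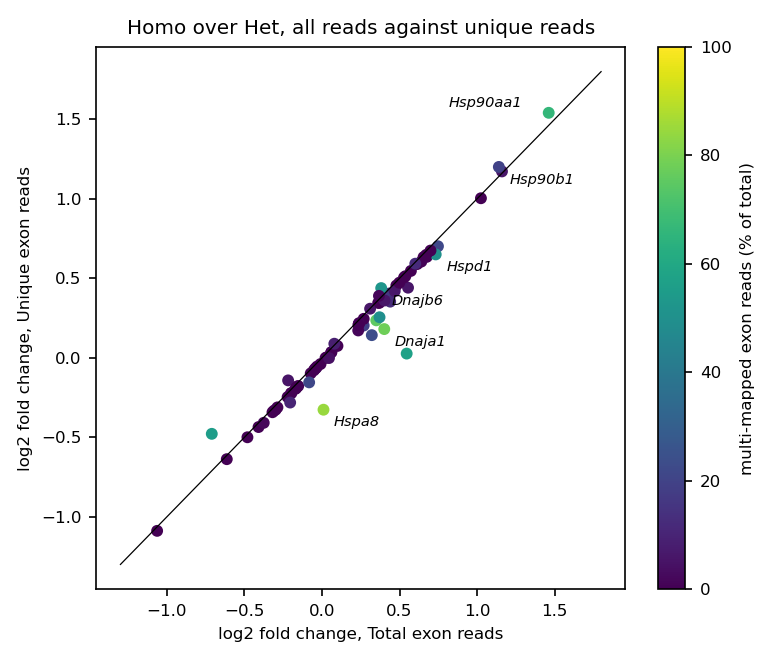
Log2 fold change (Homo over Het) of each member on all exon reads (x) and on unique exon reads (y), coloured by the percentage of its exon reads that were multi-mapped; the line marks equal values. Hsp90aa1, at 66.0% multi-mapped, lies close to the line, whereas Hspa8 (0.01 and -0.33), Dnaja1 (0.40 and 0.18) and the unlabelled Dnajc25 (0.55 and 0.03) lie below it.

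Hspa8, the most heavily multi-mapped of the well-sampled genes, had unlike values in the read classes, but no adjusted p under 0.05. Its multi-mapped share was 81.6%, 83.4%, 82.8% and 83.6% in Het and 86.1%, 85.8%, 87.0% and 85.7% in Homo. These did not overlap (log2 odds 0.37, SE 0.10, edgeR unadjusted p = 0.00162), but the difference failed adjustment over 4699 genes (edgeR adjusted p = 0.137). On unique reads its log2 fold change was -0.33 (adjusted p = 0.124). The low-count gene Dnajc25 had a wider gap, 0.55 on all reads and 0.03 on unique reads, neither past the test (adjusted p = 0.389 and 0.985). Dnaja1 shares were 75.6% to 77.8% in Het and 77.3% to 80.6% in Homo (log2 odds 0.25, SE 0.17, edgeR adjusted p = 0.7). For Hsp90aa1 they were 64.4% to 71.2% and 64.4% to 66.4% (log2 odds -0.16, SE 0.14, edgeR adjusted p = 0.766). Over the 32 members with enough reads of both classes, edgeR called 0 after adjustment (background 0.617%), and 2, Hspa8 and Pfdn4, had an unadjusted p under 0.05 (background 9.62%). DESeq2 was not run on the shares.

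**Figure D4:**
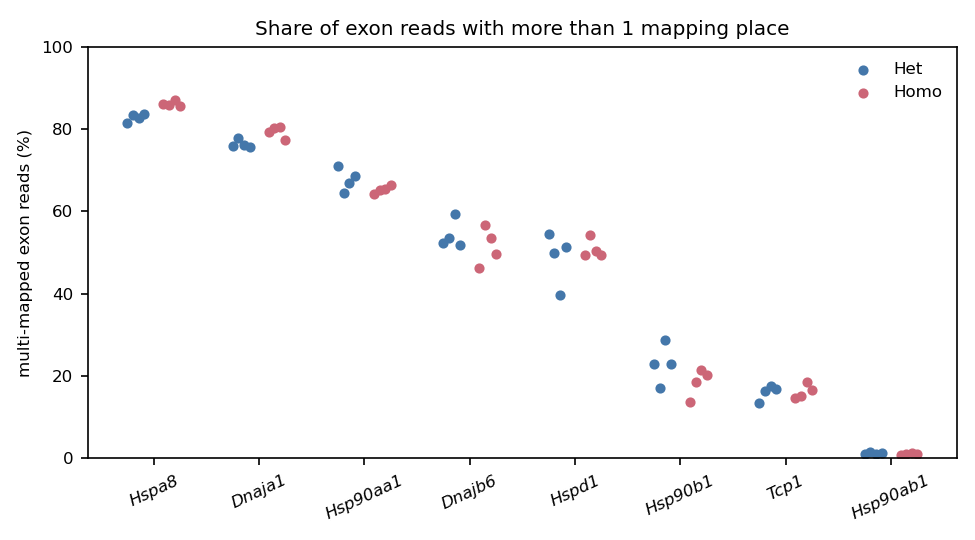
Percentage of exon reads with more than 1 mapping place in each Het and Homo library for 8 members, on an axis from 0 to 100. Hspa8 lies at 81.6% to 83.6% in Het and 85.7% to 87.0% in Homo, while the groups of the other 7 genes overlap.

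Reads given to the copies themselves were few. The tables list 65 annotated pseudogenes that share at least 30 stretches of 36 bases with 23 members, and 58 of these have an exon length of 0 there. Over all libraries, copies of Hsp90aa1 held 917 reads beside 24615 exon reads of the gene (3.73%), those of Hspa8 1201 beside 93719 (1.28%) and those of Hspd1 122 beside 2854 (4.27%). The copies' whole-gene reads were then added to the exon reads of their parent genes, an alternative chosen after seeing the data. All 35 named genes kept the same direction and call. With so few reads to add, this fit could not show how multi-mapped reads were placed. It gave 18 members higher and 2 lower (background 6.97% and 6.12%). The added one was Dnajb14, whose copies held 83 reads beside 819 (10.1%), and which went from 0.61 (edgeR adjusted p = 0.0905) to 0.79 (0.039).

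Transcript GC content moved with these results. Median GC was 44.2% for the 17 members that rose, 59.9% for the 2 that fell and 47.7% for the 58 not called. Over all tested genes, cut into 5 equal classes by GC, 19.5% of the lowest class (31.0% to 43.7%) were called higher and 0.327% lower, while in the highest class (55.3% to 74.7%) 0.163% were called higher and 19.4% lower. Of the members, 7 of 15 in the lowest class and 7 of 27 in the next rose (backgrounds 19.5% and 10.7%), 3 of 16 in the middle class did (background 3.31%), and none of the 9 and 10 in the upper classes did.

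**Figure D5:**
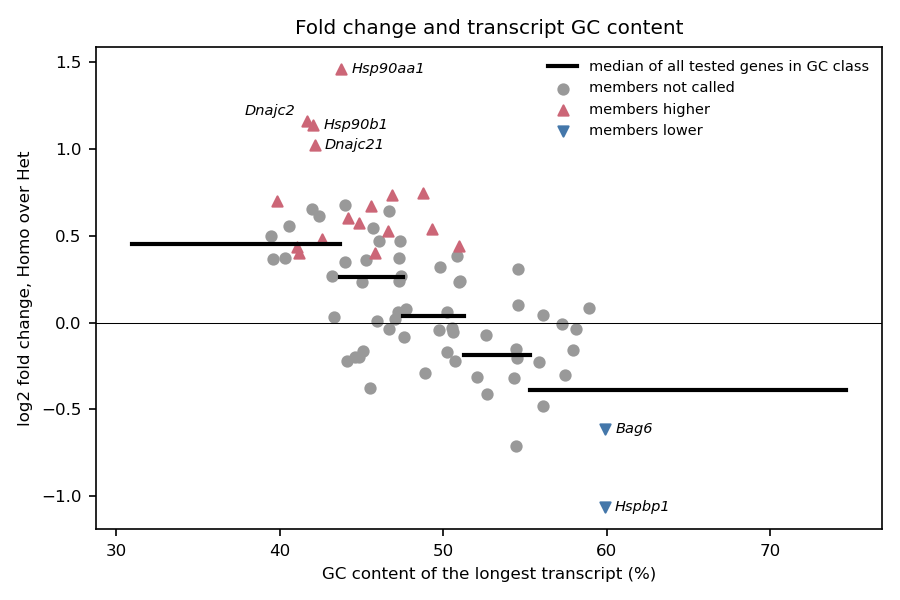
Log2 fold change (Homo over Het, all exon reads) of each tested member against the GC content of its longest transcript, with the median of all tested genes in each of 5 GC classes drawn as a bar over that class's range. The bars step down from 0.45 to -0.39, the members that rose lie at or below 50.9% GC, and Hspbp1 and Bag6 lie at 59.9%.

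After a correction for GC content within each library, 2 of 77 members stayed higher and none was lower (background 0.556% and 0.564%). Hsp90aa1 kept a log2 fold change of 1.11 (edgeR adjusted p = 0.00169) and Hsp90b1 0.71 (0.0141). Hsp90aa1 remained called whichever library was left out of that fit (1.03 to 1.15), whereas Hsp90b1 was called in 2 of the 8 such fits and lost without library 1, 2, 4, 10, 11 or 12 (0.63 to 0.75). On unique reads with the same correction, a combination tried after the data were seen, Hsp90aa1, Hsp90b1 and Dnajc2 were called (1.23, 0.81 and 0.76, edgeR adjusted p = 0.000193, 0.00458 and 0.0196; background 0.992%). With the correction on all exon reads, Hspa5, Hspd1 and Hspbp1 kept their direction at 0.37, 0.50 and -0.64 without passing (0.24, 0.0867 and 0.225). In that same fit Dnajc2 had 0.71 (0.0509). Dnajc1, Dnajc21, Hspa12a, Dnajc7 and Hspa4 were at 0.62, 0.58, 0.45, 0.44 and 0.27, none of them called. Others lost most of their fold. Dnaja2 was at 0.03, Hspa13 at 0.20, Dnajc8 at 0.23, Dnajc10 at 0.26, Hspa9 at 0.11 and Bag6 at -0.19. Tcp1 and Dnaja1 turned to -0.08 and -0.09. The members' median was 0.03. At an unadjusted p under 0.05, the corrected edgeR fit held 12 members higher and 6 lower of 77, against 6.73% and 9.54% of all genes. None of the 65 tested pathway genes was called after the correction. At an unadjusted edgeR p under 0.05 there were 12 of them (18.5%), against 16.3% of all genes. These were 4 higher and 8 lower (6.15% and 12.3%, background 6.73% and 9.54%).

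Other ways of counting and testing gave 0 to 18 members called higher. DESeq2 called 17 members higher and 2 lower (background 7.85% and 8.4%). Unique reads across exon junctions, set beside the rest after the data were seen, gave 11 higher and 1 lower of 59 tested members (background 6.39% and 3.77%), with Hsp90aa1 at 0.98, Hsp90b1 at 1.36 and Dnajc2 at 1.45. Without the low-count filter, 7 were called higher and 2 lower (background 2.65% and 4.62%). Over whole genes, introns included, none of 85 tested members was called by edgeR (background 0.0% higher and 0.0307% lower). At an unadjusted edgeR p under 0.05 there were 16 members (18.8%), against 26.3% of all genes. Of these, 5 were higher and 11 lower (5.88% and 12.9%, background 11.5% and 14.8%). The members' median log2 fold change on whole-gene reads was -0.14, against 0.09 over all tested genes. There Hsp90aa1 had 0.99 (edgeR adjusted p = 0.108) and Hsp90b1 0.59 (0.15).

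Leaving out 1 library at a time, without the GC correction, 8 to 15 members were called higher and 0 to 2 lower. As shares of tested members, 10.1% to 19.0% were higher, against 3.25% to 7.57% of all genes in the same fits, and 0% to 2.56% were lower, against 2.46% to 8.77%. The fewest calls among members and among all genes came without Het library 2. Hsp90aa1, Hsp90b1, Hspa5, Hspd1, Dnajc2, Dnajc8 and Hspa4 were called in all 8 such fits. Dnaja2 lost its call without library 11, Hspbp1 without 2, Dnajc1 without 2 or 12, Hspa13 without 2 or 10, Dnajc21 without 2, 11 or 12, and Bag6 without 1, 2, 10 or 12. Dnajc10 and Hspa12a were called in 3 of the 8 fits, Dnajc7 in 2, Tcp1 and Dnaja1 in 1 and Hspa9 in 0.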

How the data were processed

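RNA of 8 libraries was sequenced as pairs of 36 bases with a stranded total RNA kit, per the labels' protocols. Whole-number read counts per gene (total and unique, over exons, genes and exon-exon junctions) and TPM, which sums to 1000000 per library, were deposited by the authors, per the file headers. The submitters' processing notes name the builds mm10 and GRCm38. For the aligner, the counter, the use of strand and the placing of multi-mapped reads, the tool or setting is not given in the sources used here, so members with near-copies are uncertain.

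Total exon counts were tested with edgeR 4.0.16 (R 4.3.3; filterByExpr, TMM, quasi-likelihood F test, Benjamini-Hochberg over all tested genes, threshold 0.05). Log2 fold changes are Homo over Het, and SE is the size of the log2 fold change over the square root of F. CPM uses TMM-scaled sizes. Unique counts were tested the same way. Multi-mapped shares were tested in edgeR with library, read class and class by genotype, for genes with at least 10 reads of each class. GC content came from the longest GENCODE M21 transcript (99.8% of tested genes), and the correction was a loess fit per library (span 0.4). Promoters are from RefSeq. The tests were checked on simulated data.

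Named genes were the members called on total or unique exon reads, the highest member of each family by TPM, and well-known members and heat shock factors. Members and lists were chosen with earlier results of these data known. Alternatives were DESeq2 1.42.0 and its size factors, no low-count filter, unique or junction reads, whole-gene reads, GC correction, summed pseudogene copies and leaving out each library. No samples share library numbers across genotypes, so none were paired.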

Additional observations from a re-analysis of the deposited data

Results flagged for a closer look

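In 10 of 154 group tests, 1 library of 4 stood apart from the other 3 of its genotype by a gap past Dixon's limit. Chance gives about 1 in 20, or 7.7 here. The genes that were called are Hspd1, at 87.6 CPM in Het library 2 against 102 to 104 CPM in the others, and Hspa5, at 357 CPM in Homo library 10 against 403 to 410 CPM. Homo library 10 was also lowest for Bag4 (29.1 CPM against 48.1 to 50.6 CPM) and highest for Dnajc6 (107 CPM against 85.6 to 89.1 CPM) and Hspa1a (7.67 CPM against 5.13 to 5.50 CPM). Homo library 9 was highest for Cct4, at 132 CPM against 97.9 to 103 CPM. Het library 1 was highest for Dnajb11 (82.5 CPM against 54.8 to 59.0 CPM) and Hspa12b (15.7 CPM against 5.35 to 6.94 CPM) and lowest for Hspbap1 (13.8 CPM against at most 17.3 CPM in the others). Het library 3 was highest for Hspa1b, at 8.09 CPM against 3.46 to 3.73 CPM.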

How the results depend on the processing

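No paired analysis was possible because the library numbers 1 to 4 and 9 to 12 are not shared by the genotypes. Of 17 members higher and 2 lower, whole-gene reads, which include introns, left 0 and 0, no low-count filter left 7 higher, GC correction 2 and 0, and unique exon-exon reads 11 and 1. GC correction of unique reads left 3 and 0. GC correction of all exon reads with each library left out gave 1 to 2 and 0. Summed copies gave 18 and 2. Without GC correction, leaving out each library gave 8 to 15 higher and 0 to 2 lower. Without the filter the median log2 fold change of all genes was 0.38. Of 10 pathway genes higher and 9 lower, whole-gene reads left 0 and 0, and GC correction 0 and 0. Without the filter, 5 of 71 pathway genes were higher and 11 lower (background 2.65% and 4.62%). Leaving out each library gave 4 to 10 higher and 4 to 11 lower. DESeq2 changed no call of the 35 named genes, although it gave no adjusted p for Hspa1a and Hspa1b, and its size factors ended those of Hsf2 and Hspa9. Causes were not tested. The junction, summed-copy and combined GC alternatives were chosen after seeing the data.

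Some log2 fold changes changed sign. On whole-gene reads they were -0.36 for Bag1, -0.14 for Dnaja1, -0.095 for Dnaja2, -0.12 for Dnajb6, -0.032 for Dnajb9, -0.029 for Dnajc10, -0.079 for Dnajc7, -0.33 for Hsp90ab1, -0.53 for Hspa1a, -0.012 for Hspa4, -0.54 for Hspa8, -0.13 for Hspa9, -0.23 for Hsph1 and -0.14 for Tcp1. With GC correction they were -0.088 for Dnaja1, -0.11 for Dnajc3, -0.095 for Hsf2, 0.31 for Hspa1b, -0.28 for Hspa8 and -0.081 for Tcp1. With GC correction of unique reads they were -0.26 for Dnaja1, -0.033 for Dnajb9, -0.088 for Dnajc3, -0.031 for Hsf2, -0.57 for Hspa8 and -0.067 for Tcp1. Without the filter they were -0.028 for Bag1, -0.046 for Hspa1a and -0.12 for Hspa8. Hspa8, at 0.01 on all exon reads, was -0.33 on unique reads, -0.30 on exon-exon reads, -0.011 with DESeq2 or its size factors and -0.10 to 0.092 with each library left out. Dnaja1 was -0.014 on exon-exon reads. With each library left out, Hspa1a ran from -0.068 to 0.17 and Hspa1b from -0.35 to 0.37.

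Low-count members limit what the depth can show: Hspa1a, Hspa1b and Bag3 had SEs of 0.47, 0.76 and 0.49 on the log2 scale.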
